A study of Mus musculus with 2 samples.

Results

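The genes described here are the 8 mouse cytokine genes of the IL-12, IL-23 and IL-6 families: Il12a, Il12b, Il23a, Il27, Ebi3, Il6, Lif and Osm. They were taken by gene symbol from the tables of 2 single-cell RNA-seq libraries, and all 8 were present among the 31053 genes of both. The cells came from the colon of bone marrow chimeras. A CD45.1 recipient received CD45.2 donor marrow that lacked the IL-10 receptor (KO) or lacked both the IL-10 receptor and the ceramide synthase CerS2 (DKO). Marrow of both genotypes therefore lacked the IL-10 receptor, and CerS2, which makes very long chain ceramides, was the stated difference between them. Per the study's methods, cells had been sorted on CD45 and the myeloid surface proteins CD11b, CD11c and CD64. The study's main text describes the sort by CD45 alone. The age of the mice and the number of mice behind a library were not given in the sources used here. There was 1 library per genotype, so genotype cannot be told apart from mouse, sort or library, no test was run, and every interval below is an exact 95% interval that covers counting error only. The limit given for a count of 0 is that of 3 counts, a value somewhat below the exact upper limit, and it bounds the cells with a UMI, not the cells that express the gene.

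IL-12 and IL-23 are heterodimers that share the p40 chain encoded by Il12b. The p40 chain pairs with p35, encoded by Il12a, to form IL-12, which is known for driving interferon-γ in T and NK cells, and with p19, encoded by Il23a, to form IL-23, which sustains cells that make IL-17 and IL-22 in the gut. Ebi3 encodes another shared chain that pairs with the Il27 product (p28) in IL-27 and with p35 in IL-35. IL-6, LIF and oncostatin M act as single chains, and their receptors, like that of IL-27, use gp130, encoded by Il6st. Myeloid cells are the known source of most of these cytokines in the colon, and IL-10 is known to hold several of them down.

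On the mm10 genome build (GRCm38), all 8 are annotated as protein-coding genes. Il12a lies at chr3:68690644-68698547, Il12b at chr11:44400063-44414033, Il6 at chr5:30013114-30019981 and Ebi3 at chr17:55952640-55957022, all on the plus strand. Il23a at chr10:128296139-128298752 and Il27 at chr7:126589010-126594941 lie on the minus strand. Osm at chr11:4236420-4241026 and Lif at chr11:4257557-4272514 are neighbours on the plus strand with 16531 bases between them. Il27 overlaps Apobr and Ebi3 overlaps the antisense gene Gm16712, each on the opposite strand.

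The promoters of Il6, Ebi3 and Il12b are shown because these genes had different patterns across cells, described below. Il6 was more frequent in KO macrophages with Arg1 than in those without, and Ebi3 was found across several myeloid classes. Most Il12b UMIs, though not most KO cells with Il12b, lay in mature dendritic cells, and 1 KO cell held 64.6% of the KO UMIs. Each sequence is the 250 bases before the annotated start (RefSeq, GRCm38.p6), at chr5:30012864-30013113, chr17:55952373-55952622 and chr11:44399813-44400062, and capitals mark a match to the 10-base κB consensus, the binding motif of NF-κB.
Il6: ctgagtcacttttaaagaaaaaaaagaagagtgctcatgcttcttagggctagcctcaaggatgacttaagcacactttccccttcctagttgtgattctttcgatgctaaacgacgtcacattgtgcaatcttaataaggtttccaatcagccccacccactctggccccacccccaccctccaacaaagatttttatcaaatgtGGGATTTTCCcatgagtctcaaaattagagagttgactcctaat
Ebi3: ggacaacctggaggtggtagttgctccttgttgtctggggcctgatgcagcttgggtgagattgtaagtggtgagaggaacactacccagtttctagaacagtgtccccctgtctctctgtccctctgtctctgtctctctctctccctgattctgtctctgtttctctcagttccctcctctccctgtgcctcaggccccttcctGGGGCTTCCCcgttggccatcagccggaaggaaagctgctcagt
Il12b: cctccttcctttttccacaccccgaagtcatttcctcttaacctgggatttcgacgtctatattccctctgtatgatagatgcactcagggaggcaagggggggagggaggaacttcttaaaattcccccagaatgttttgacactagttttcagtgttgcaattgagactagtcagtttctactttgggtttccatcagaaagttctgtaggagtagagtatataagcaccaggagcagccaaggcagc
Read on both strands, Il6 and Ebi3 each held 1 match, and Il12b, Lif and both annotated starts of Il12a held 0. The consensus was present in 1643 of 32851 promoter windows of this length, or 5.0%. A match describes the letters of this window only, and 0 matches do not exclude a site that departs from the consensus. The promoters of Il23a, Il27 and Osm were not analysed here.

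The KO library held 2584 barcodes with 12549471 unique molecular identifiers (UMIs), tags that count each captured RNA molecule once, against 742 barcodes and 3414944 UMIs for DKO. The filter on cells kept 2443 KO cells and 730 DKO cells, and 1 barcode sequence occurred in both libraries. Each cell was assigned to a class by a gate on marker genes, and 197 KO cells and 67 DKO cells met no gate or stood too close to a second one. The labels call the cells colon macrophages, and the class gated on monocyte/macrophage markers, with a median of 5 of them detected per cell in KO and 6 in DKO, took 60.4% of KO cells (1475 cells) and 41.4% of DKO cells (302 cells). The rest included 225 KO and 167 DKO B cells, 281 and 103 T cells, 154 and 46 neutrophils, 47 and 24 mature dendritic cells, and 25 and 12 conventional dendritic cells. Cers2 checked the labels, with 412 UMIs in the KO monocyte/macrophages and 0 in those of DKO, where 2 of 730 kept cells held a UMI of it. Il10rb, the gene of an IL-10 receptor chain, still gave 74 UMIs over the KO library and 14 over the DKO library, and which part of that gene had been deleted was not given, so these UMIs check nothing.

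At least 1 of the 8 cytokine genes was detected in 29.5% of KO cells and 27.3% of DKO cells. The share was 35.7% of KO and 39.1% of DKO monocyte/macrophages, 66.0% and 66.7% of mature dendritic cells, and 44.8% and 50% of neutrophils. In lymphocytes it was low, at 5.78% and 5.99% of B cells and 3.20% and 1.94% of T cells. T and B cells, pooled, served as a background, though not one shown to hold free RNA alone, since 4 of the 506 KO cells held 139 UMIs of Arg1. Their share of cells with a UMI was 1.58% or less for each member in KO and, apart from Il12a at 2.96%, 0.37% or less in DKO. Their median depth was lower, at 3923 UMIs in KO T cells and 2449 in KO B cells against 5401 in KO monocyte/macrophages.

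**Figure D1:**
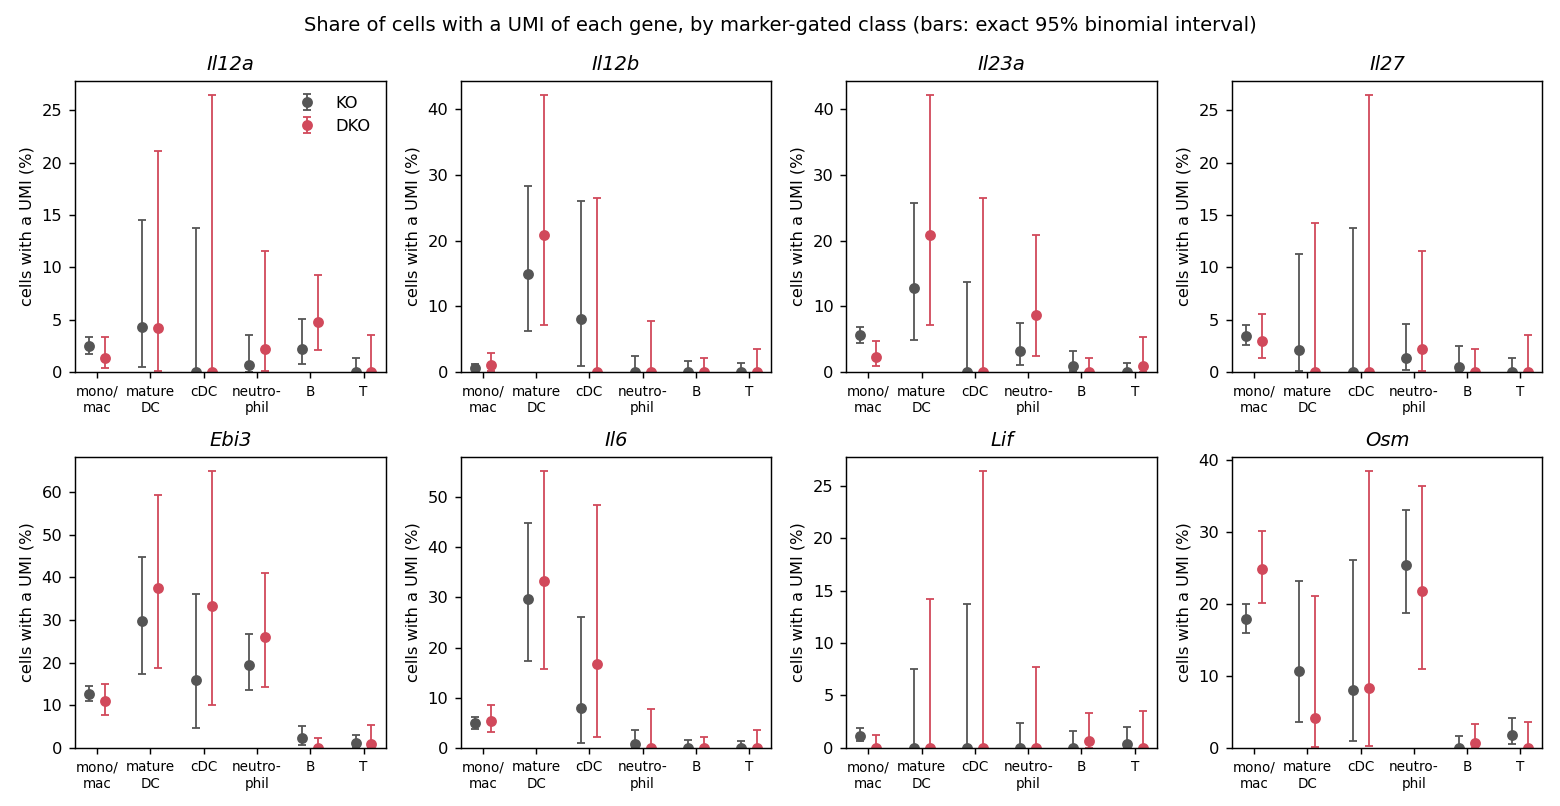
Share of cells with at least 1 UMI of each gene (y axis, percent; each panel has its own scale) in 6 marker-gated classes (x axis) of the KO library (grey) and the DKO library (red), with exact 95% binomial intervals. Ebi3 and Osm were carried by both monocyte/macrophages and neutrophils, Il12b by mature dendritic cells (14.9% in KO, 20.8% in DKO), and B and T cells lay near 0 for most genes.

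Il12b, the p40 chain shared by IL-12 and IL-23, was held by few cells at high counts. It was detected in 24 of 2443 KO cells with 209 UMIs and in 8 of 730 DKO cells with 205 UMIs. Mature dendritic cells, which carry antigen from tissue to lymph node and are marked by Ccr7, were 1.92% of KO cells and 3.29% of DKO cells, and they held 79.9% of the KO and 67.8% of the DKO Il12b UMIs. Of 47 KO mature dendritic cells, 7 held Il12b, with 1, 1, 3, 8, 8, 11 and 135 UMIs. Of 24 DKO mature dendritic cells, 5 held it, with 3, 24, 27, 31 and 54 UMIs. A single KO cell thus carried 64.6% of the KO library's Il12b, while 4 DKO mature dendritic cells held more than any other KO cell. The class had 423 CPM of Il12b (CPM, UMIs per 1000000 UMIs of the class; 362 to 493) in KO and 499 (419 to 589) in DKO, and without the highest cell of each library it had 82.8 in KO and 322 in DKO.

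Outside the mature dendritic cells, Il12b was found in 2 of 25 KO conventional dendritic cells (6 and 7 UMIs), which also held Flt3 and Ccr7, and in 0 of 12 in DKO, which allows a share of cells with a UMI of up to 25.0%. Among monocyte/macrophages, 10 of 1475 KO cells held 20 UMIs, at most 4 in a cell, and 3 of 302 DKO cells held 66 UMIs. Of those 66, 59 lay in 1 cell. That cell had 27 UMIs of Ccr7 and 4 of Ccl22, a chemokine of mature dendritic cells, beside 3 of C1qa and 0 of Csf1r, and its doublet score stood at the 95.4th percentile of its library. The gate therefore placed in the macrophage class a cell whose own markers were those of both classes. No Il12b UMI was found in the 506 KO and 270 DKO B and T cells, nor in the 154 and 46 neutrophils.

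Il23a, the p19 chain of IL-23, was detected in 104 KO cells with 525 UMIs and in 23 DKO cells with 142 UMIs. Over all kept cells its level was the same to within counting error, at 42.3 CPM in KO (38.8 to 46.1) and 41.7 in DKO (35.2 to 49.2), but its UMIs were spread differently over the classes. In KO, monocyte/macrophages held 87.2% of the UMIs, with a UMI in 82 of 1475 cells (5.56%, 4.45% to 6.85%). In DKO, monocyte/macrophages held 6.34% of the UMIs, in 7 of 302 cells (2.32%, 0.937% to 4.72%) with at most 2 UMIs each. Mature dendritic cells held 44.4% of the DKO UMIs, in 5 of 24 cells, and 5.33% of the KO UMIs, in 6 of 47 cells (12.8%, 4.83% to 25.7%). Ungated cells held 43.7% of the DKO UMIs and 5.71% of the KO UMIs.

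The DKO mature dendritic cells with Il23a carried few of the markers of their class. Each had 3 or 4 of the 8 markers, with Ccr7 in all 5, Ccl22 in 0 and Fscn1, an actin-bundling protein of mature dendritic cells, in 1, and each had 96 to 447 UMIs of Lyz2, the myeloid lysozyme gene. The 5 DKO mature dendritic cells with Il12b had 6 to 8 of the markers, with Ccl22 and Fscn1 in all 5 and at most 8 UMIs of Lyz2. Of the 6 KO mature dendritic cells with Il23a, which had 3 to 8 of the markers, 5 held Ccl22 and 2 held Fscn1, and Lyz2 lay between 0 and 137 UMIs. The Il23a cells gated to this class in DKO were thus unlike its Il12b cells in these markers.

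The cells with the most Il23a also differed in what else they expressed. The 6 highest KO cells were monocyte/macrophages with 60, 39, 37, 37, 35 and 21 UMIs of Il23a, all with Nos2 (2 to 28 UMIs) and Cd14 (16 to 28 UMIs), and 4 of them with Arg1. The 6 highest DKO cells had 25, 21, 18, 17, 13 and 12 UMIs, with 0 of Arg1 and Nos2 in each, and all held Ccr7. Taking every cell with 3 or more Il23a UMIs, 30 of 45 KO cells and 0 of 10 DKO cells held Arg1 or Nos2, which encode enzymes that both use arginine. Of the 10 DKO cells, 9 held Ccr7, 7 held Flt3, the receptor of a dendritic cell growth factor, and 7 held Itgae, which encodes CD103, an integrin of intestinal dendritic cells. Of the 45 KO cells, 17 held Ccr7, 2 held Flt3 and 2 held Itgae. The DKO cells were deeper, with a median of 15269 UMIs against 6842 in the KO cells, and held a median of 151 UMIs of Lyz2 against 3. The part of this depth in the detection of other genes was not tested. By unsupervised clustering, which used these genes too, 87.3% of DKO Il23a UMIs lay in the cluster named conventional dendritic cell (61 DKO cells) and 73.3% of KO Il23a UMIs in a macrophage cluster led by Arg1, which held 179 KO cells and 2 DKO cells. No cluster was named mature dendritic cell. The cluster named conventional dendritic cell also held 86.6% of the KO and 67.8% of the DKO Il12b UMIs, so it did not part the Il23a cells from the Il12b cells.

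**Figure D2:**
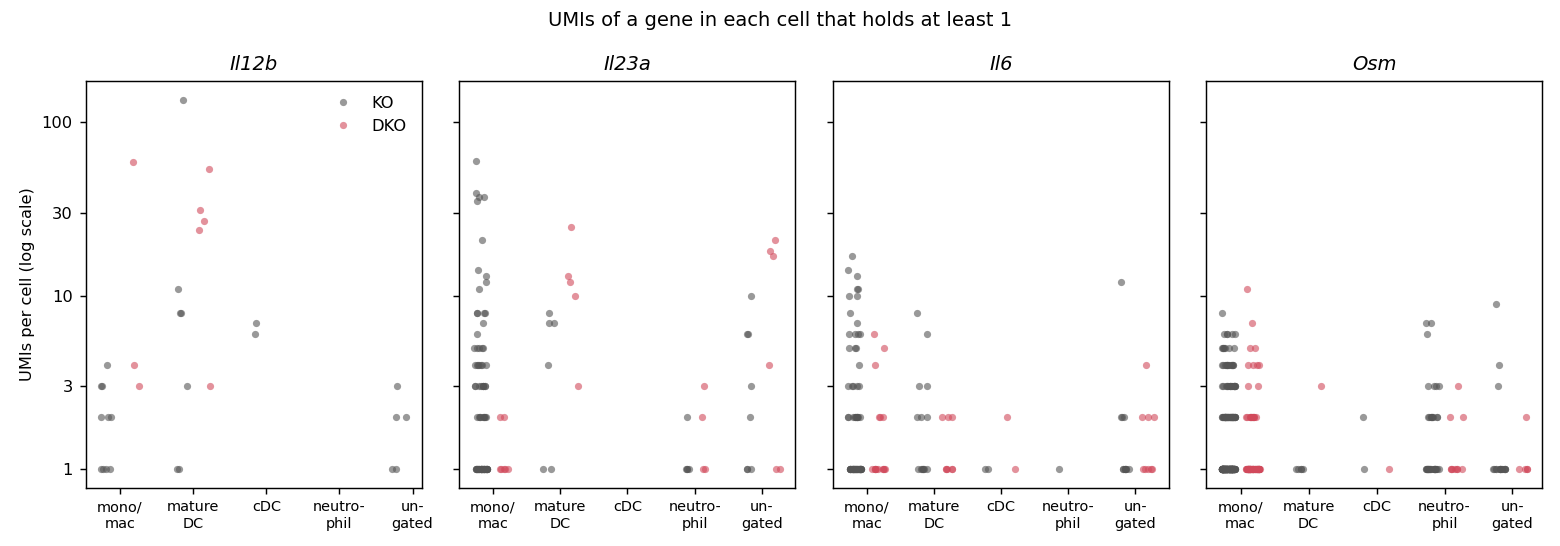
UMIs in each cell with at least 1 UMI (y axis, log scale) for Il12b, Il23a, Il6 and Osm, by class (x axis), with KO cells in grey and DKO cells in red, and points spread sideways for sight only. The highest Il23a cells were monocyte/macrophages in KO (up to 60 UMIs) and mature dendritic or ungated cells in DKO (up to 25 UMIs), and the highest Il12b cell was a KO mature dendritic cell with 135 UMIs.

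Neutrophils also held Il23a, in 5 of 154 KO cells (3.25%) and 4 of 46 DKO cells (8.70%), with 6 and 7 UMIs at a median depth of only 1602 and 1551 UMIs per cell. Both shares lay above those of the T and B cells, at 0.395% in KO and 0.37% in DKO.

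Il12a, the p35 chain, was sparse, with 97 UMIs over 53 cells of KO and 18 UMIs over 14 cells of DKO. KO monocyte/macrophages held 66.0% of the KO UMIs, in 36 cells (2.44%, 1.72% to 3.36%), and the highest KO cell had 12 UMIs in an ungated cell that also held 12 of Il6, 25 of Nos2 and 8 of Arg1. In DKO, B cells held 61.1% of the Il12a UMIs. A UMI was present in 8 of 167 DKO B cells (4.79%, 2.09% to 9.22%) and 5 of 225 KO B cells (2.22%, 0.725% to 5.11%), against 0 of 103 and 0 of 281 T cells, which allow shares of cells with a UMI of up to 2.91% and 1.07%. The B cell level was 22.9 CPM in DKO (11.4 to 40.9) and 10.7 in KO (4.31 to 22.1), and the intervals overlap.

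Il27, which encodes the p28 chain, was almost always present at a single UMI. It was detected in 60 KO cells, 54 of them with 1 UMI, and in 11 DKO cells, 10 of them with 1. Monocyte/macrophages held 84.1% of KO and 86.7% of DKO UMIs, with a UMI in 3.46% (2.59% to 4.52%) of the class in KO against 2.98% (1.37% to 5.58%) in DKO. The level was 7.05 CPM in KO and 7.79 in DKO, a difference within counting error.

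Ebi3 had the widest spread over classes. It was found in 264 KO cells (10.8%) and 69 DKO cells (9.45%), mostly at 1 UMI. In monocyte/macrophages 12.7% of KO cells and 10.9% of DKO cells held a UMI, in mature dendritic cells 29.8% and 37.5%, and in neutrophils 19.5% (13.5% to 26.6%) and 26.1% (14.3% to 41.1%), against 1.58% and 0.37% of T and B cells. In CPM, neutrophils had 153 (110 to 207) in KO and 176 (96.4 to 296) in DKO, while monocyte/macrophages had 27.2 (23.8 to 31.0) and 30.6 (22.8 to 40.2), so the order of these classes was the same in both libraries. When each cell was thinned to 2000 UMIs, 24.4% of 45 KO neutrophils and 5.46% of 1337 KO monocyte/macrophages held Ebi3. That step left out 109 KO neutrophils, and only 12 DKO neutrophils remained.

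Il6, the acute-phase cytokine, was detected in 102 KO cells with 283 UMIs and 35 DKO cells with 60 UMIs. Before thinning, the share of cells with it was highest in mature dendritic cells among the classes named above. It was 29.8% (17.3% to 44.9%) in KO and 33.3% (15.6% to 55.3%) in DKO, against 4.88% (3.84% to 6.11%) and 5.3% (3.06% to 8.46%) of monocyte/macrophages. KO monocyte/macrophages nevertheless held 77.7% of the KO UMIs, and 22 of their 72 positive cells held 3 to 17 UMIs. In DKO only 3 of 16 positive monocyte/macrophages held 3 or more, and the highest had 6. No B or T cell held Il6 in either library. After thinning to 2000 UMIs, 11.4% of 44 KO mature dendritic cells held Il6 (3.79% to 24.6%), against 2.69% of KO monocyte/macrophages (1.89% to 3.71%). In DKO it was then in 0 of 24 mature dendritic cells (exact upper limit 14.2%) and 3.27% of monocyte/macrophages (1.51% to 6.12%). The order of these classes was thus kept in KO but not in DKO, where the intervals overlapped.

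Lif, a regulator of stem cells and of the acute phase, was found in 21 KO cells with 58 UMIs and in 2 DKO cells with 3 UMIs. KO monocyte/macrophages held 39 UMIs in 17 cells, 14 of them in a single cell, and 12 further UMIs lay in 1 KO T cell that also held 17 UMIs of Ccr7. In DKO monocyte/macrophages Lif was not detected in 302 cells, which allows a share of cells with a UMI of up to 0.993%. The level in KO was 4.74 CPM, and the log2 ratio of DKO over KO had an exact 95% upper limit of -1.03.

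Osm, which encodes oncostatin M, was the member carried by the most cells, at 333 KO cells (13.6%) and 93 DKO cells (12.7%). A UMI was present in 17.9% of KO monocyte/macrophages (16.0% to 20%) and 24.8% of DKO monocyte/macrophages (20.1% to 30.1%), and after thinning to 2000 UMIs the shares were 9.27% (7.77% to 11.0%) and 14.9% (10.9% to 19.7%). In neutrophils the shares were 25.3% in KO and 21.7% in DKO. Neutrophils had 266 CPM of Osm (209 to 335) in KO and 176 (96.4 to 296) in DKO, above the 54.1 and 76.1 of monocyte/macrophages. Mature dendritic cells held few, with 5 UMIs in KO and 3 in DKO.

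Cells with both chains of a heterodimer were rare. Any of the 4 pairs was co-detected in 17 of 2443 KO cells (0.696%, 0.406% to 1.11%) and in DKO in 4 of 730 (0.548%, 0.149% to 1.40%). The IL-12 pair, Il12a with Il12b, was seen in 2 KO cells and 0 DKO cells. The IL-23 pair, Il23a with Il12b, was seen in 6 KO cells and 0 DKO cells, although DKO had 23 cells with Il23a and 8 with Il12b. Of the 24 KO cells with Il12b, 25% held Il23a, against 4.05% of the other KO cells. Within KO monocyte/macrophages it was 30% of 10 Il12b cells against 5.39%. Il12a was held by 8.33% of the KO cells with Il12b, against 2.11% of the others. The 6 IL-23 pair cells had a median of 8826 UMIs, against 4715 over the KO cells, and the part of depth was not tested. The 6 KO cells were 3 monocyte/macrophages, 2 mature dendritic cells and 1 ungated cell. They included the KO cell with 135 Il12b UMIs, which also held 8 of Il23a, 8 of Il6, 7 of Ebi3, 3 of Il27 and 2 of Il12a, the most members found in any cell. The doublet score of that cell stood at the 90.3rd percentile of its library, and those of the other IL-23 pair cells between the 44.5th and the 92.2nd. The part of doublets in these pairs was not tested. In DKO, the 5 mature dendritic cells with Il12b and the 5 with Il23a were different cells. A count of 0 in 730 cells allows a share of up to 0.411%, so the absence of an IL-23 pair in DKO and the 6 cells in KO were not told apart at this depth.

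The IL-27 pair, Il27 with Ebi3, was seen in 6 KO and 3 DKO cells, and the IL-35 pair, Il12a with Ebi3, in 7 KO and 2 DKO cells. Within KO monocyte/macrophages, 9.80% of the 51 Il27 cells held Ebi3, against 12.8% of the cells without Il27, and in DKO 3 of 9 Il27 cells did (33.3%), against 10.2% of the others. For IL-35 the KO shares were 13.9% of 36 Il12a cells against 12.6% of the others, and in DKO 1 of 4 Il12a cells held Ebi3. A single UMI of each chain was all that 2 of the 6 KO and 3 of the 3 DKO cells held for IL-27, and 5 of the 7 KO and 1 of the 2 DKO cells for IL-35.

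Members of different cytokines were found together in more cells. In KO monocyte/macrophages, 34 cells held Il23a with Il6, which was 41.5% of the 82 Il23a cells against 2.73% of the other cells. Il23a with Osm was seen in 46 cells (56.1% of Il23a cells against 15.6% of the others), and Il12a with Il6 in 11 cells (30.6% of Il12a cells against 4.24%). Of the 17 Lif cells, 9 held Il23a. The median depth of the Il23a cells was 5900 UMIs and that of the others 5382. In DKO monocyte/macrophages Il23a with Il6 was seen in 1 cell of 7 with Il23a.

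**Figure D3:**
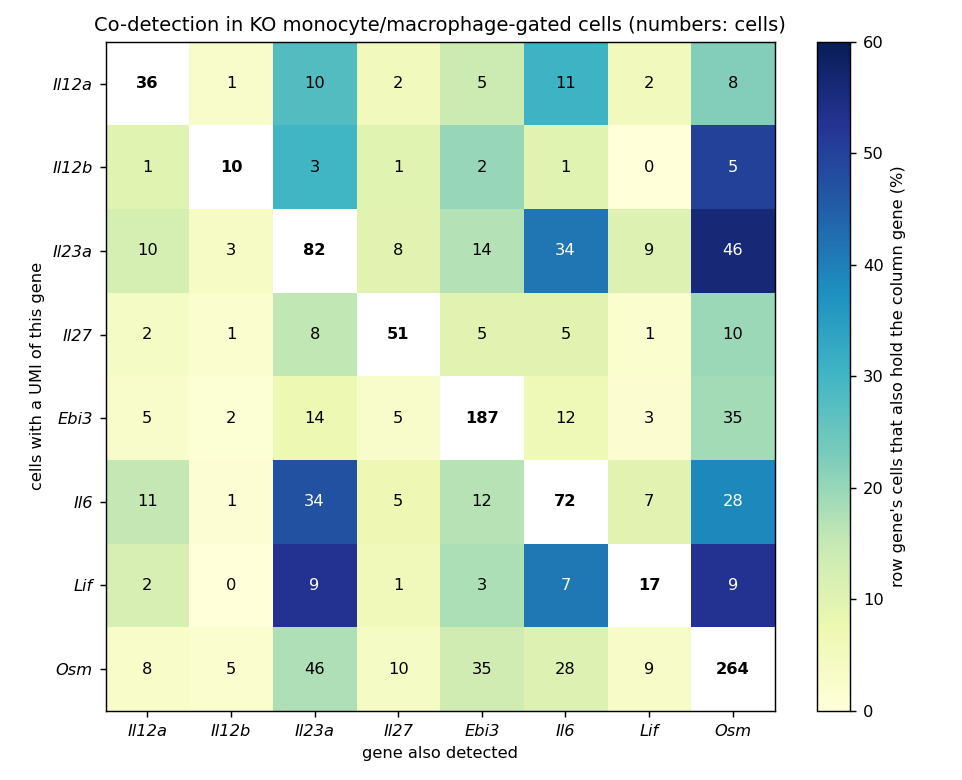
Co-detection in the 1475 KO monocyte/macrophages: numbers are cells, bold on the diagonal for each gene alone, and color is the percent of the row gene's cells that also held the column gene. Il23a, Il6, Lif and Osm were found together (34 cells with Il23a and Il6, 46 with Il23a and Osm), and Il27 with Ebi3 in 5 cells.

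Il12a, Il23a, Il6, Lif and Osm were detected in a larger share of the KO monocyte/macrophages that held Arg1, which encodes arginase, than of those that did not. Of the KO monocyte/macrophages 160 held an Arg1 UMI, and in DKO 1 of 302 did. In KO cells with Arg1, 24.4% held Il23a (17.9% to 31.8%), 21.9% held Il6 (15.7% to 29.1%), 10.6% held Il12a (6.31% to 16.5%) and 8.13% held Lif (4.4% to 13.5%). In the 1315 KO cells without Arg1 the shares were 3.27% (2.38% to 4.38%), 2.81% (1.99% to 3.86%), 1.44% (0.872% to 2.25%) and 0.304% (0.0829% to 0.777%). Osm was in 31.3% of the cells with Arg1 (24.2% to 39.0%) and 16.3% of those without (14.3% to 18.4%). For these 5 genes the intervals of the cells with and without Arg1 did not overlap before thinning. Most cells with a member still lay outside the Arg1 cells, at 43 of 82 for Il23a, 37 of 72 for Il6, 19 of 36 for Il12a and 214 of 264 for Osm, but 4 of 17 for Lif.

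For Il27 (4.38% with Arg1 and 3.35% without) and Ebi3 (8.13% and 13.2%) the intervals of the shares overlapped. The level of Ebi3 was lower in the cells with Arg1, at 13.4 CPM (7.32 to 22.5) against 29.2 (25.4 to 33.5). The Arg1 cells held 87.2% of the macrophage UMIs of Lif, 69.5% of Il6, 63.3% of Il23a, 48.4% of Il12a, 26.3% of Osm and 6.25% of Ebi3. Their median depth was 6247 UMIs, against 5290 in the cells without Arg1, and after thinning to 2000 UMIs 16.4% and 1.78% held Il23a, and 15.1% and 1.02% held Il6. Ebi3 was then held by 0.629% (0.0159% to 3.45%) and 6.11% (4.81% to 7.64%), with intervals that did not overlap. The thinned shares of Osm were 15.1% (9.92% to 21.6%) and 8.49% (6.96% to 10.2%), with intervals that overlapped. Splitting by Nos2, which encodes inducible nitric oxide synthase, gave 20.4% and 3.22% for Il23a and 18.9% and 2.67% for Il6 in 201 KO cells with and 1274 without it. In DKO only 7 monocyte/macrophages held Nos2.

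**Figure D4:**
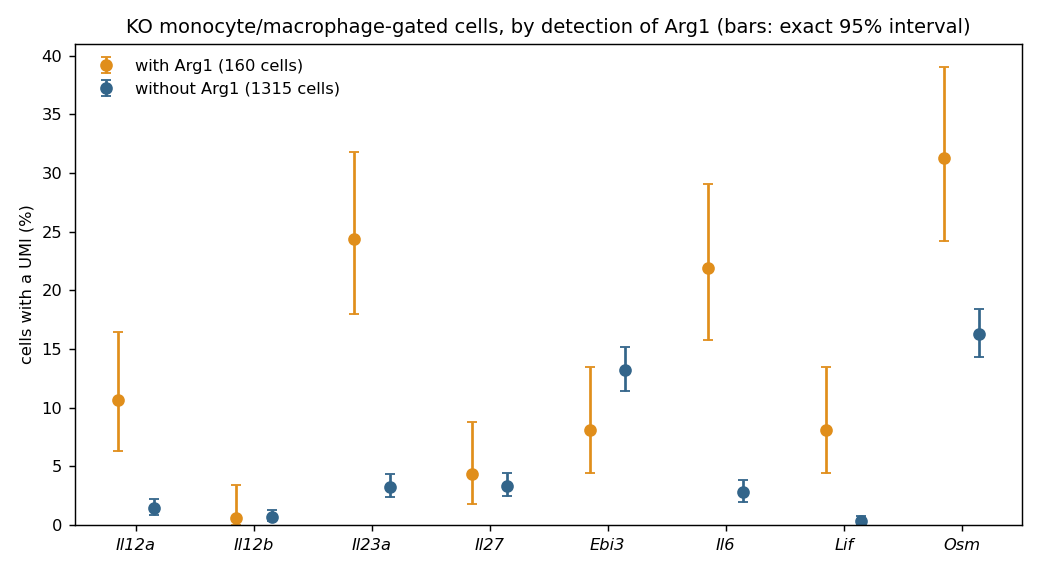
Share of KO monocyte/macrophages with a UMI of each gene (y axis, percent), for the 160 cells with Arg1 (orange) and the 1315 without (blue), with exact 95% binomial intervals. Il12a, Il23a, Il6, Lif and Osm were higher in the cells with Arg1, and Ebi3 was not (8.13% against 13.2%).

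Summed over all monocyte/macrophages, members moved in different directions between the libraries. More than 2-fold lower in DKO were 3 of 8 (Il12a, Il23a and Lif), beside 4.44% of the 10694 genes with at least 10 UMIs, and more than 2-fold higher was 1 of 8 (Il12b), beside 6.39% of those genes. The median log2 ratio of DKO over KO was -0.16 over the members and 0.10 over all genes, and it was -0.16 with Lif set at its bound. Il23a had 458 UMIs in KO and 9 in DKO, or 55.7 and 5.4 CPM, a log2 ratio of -3.29 (-4.50 to -2.43). With 1 more marker needed by the gate, the macrophage class took 18.3% of the DKO Il23a UMIs and the ratio was -1.61 (-2.27 to -1.07). Il12a had 64 and 5 UMIs, a log2 ratio of -1.25 (-3.05 to -0.08).

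Il12b had 20 UMIs in KO against 66 in DKO, a log2 ratio of 4.0 (3.28 to 4.83) that rested on the DKO cell with 59 UMIs. Without the highest cell of each library it was 1.17 (-0.41 to 2.47), with an interval that includes 0. Osm had 445 and 127 UMIs and a log2 ratio of 0.50 (0.20 to 0.78). Il6 had 220 and 31 UMIs and a log2 ratio of -0.50 (-1.12 to 0.02). For Il27 it was 0.19 (-0.85 to 1.03) and for Ebi3 0.18 (-0.30 to 0.61), and these intervals include 0.

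Without the cells that held Arg1, Il6 was higher in DKO, where over all cells the interval of its ratio included 0. Leaving them out removed 160 KO cells with 153 Il6 UMIs, and 1 DKO cell with 0. For Il12a, Il23a, Il6, Lif and Osm, whose levels were higher in KO cells with Arg1, a shift of the ratio towards DKO was therefore fixed in advance. The remaining 1315 KO cells had 67 Il6 UMIs (9.33 CPM) and the 301 DKO cells had 31 (18.7 CPM), a log2 ratio of 1.01 (0.34 to 1.64). Il23a stayed lower in DKO at -2.04 (-3.26 to -1.15), with 168 and 9 UMIs, and Il12a was at -0.49 (-2.32 to 0.76). Lif, at 5 UMIs for KO and 0 for DKO, was too rare to compare. Osm was at 0.75 (0.44 to 1.04). Of the 7 members with at least 10 UMIs, 1 was then more than 2-fold lower (beside 3.54% of genes) and 2 were more than 2-fold higher (beside 5.61%), with a median of 0.27 against 0.09 over all genes. In summed RNA, fewer Arg1 cells and less RNA per cell cannot be told apart. The share of cells with Arg1 itself differed between the libraries, at 10.8% (9.31% to 12.5%) in KO and 0.331% (0.00838% to 1.83%) in DKO.

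**Figure D5:**
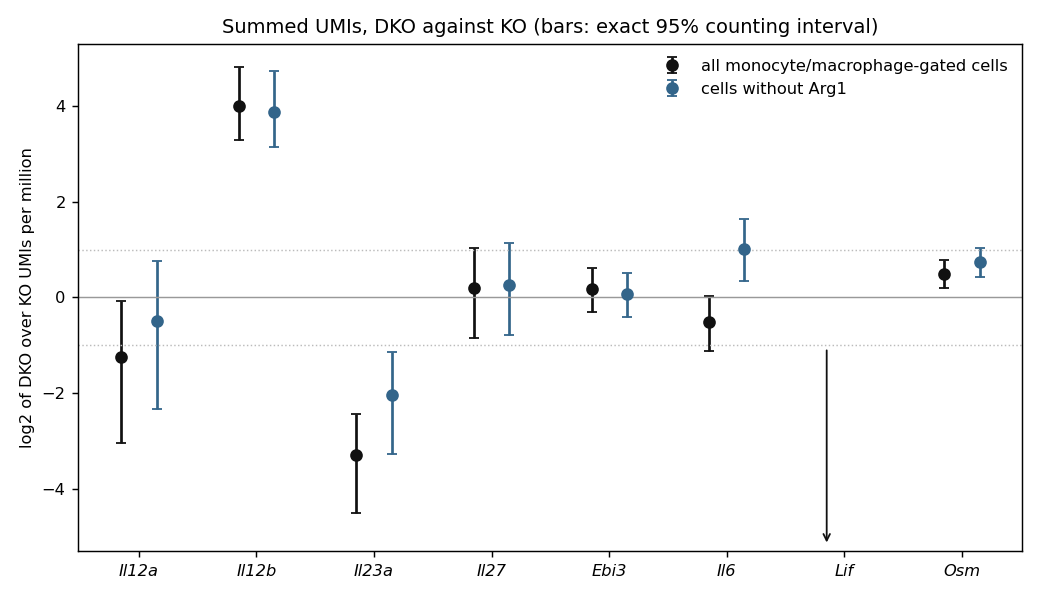
Log2 ratio of DKO over KO CPM (y axis) in all monocyte/macrophages (black) and in those without Arg1 (blue), with exact 95% counting intervals; dotted lines mark a 2-fold difference. The arrow starts at the upper bound for Lif, which had 0 UMIs in DKO, and Il6 stood at -0.50 in all cells and 1.01 in cells without Arg1. Leaving out the cells with Arg1 removed 160 KO cells and 1 DKO cell.

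In mature dendritic cells the order was different. Il23a had 28 UMIs in 6 of 47 KO cells and 63 in 5 of 24 DKO cells, or 71.0 and 226 CPM, a log2 ratio of 1.66 (1.01 to 2.37), and without the highest cell of each library 51.7 and 144 CPM. The cells behind this ratio were unlike between the libraries, since 5 of the 6 KO cells and 0 of the 5 DKO cells held Ccl22. Il6 had 33 and 11 UMIs, a log2 ratio of -1.04 (-2.22 to -0.06), although the shares of cells with it were alike before thinning. After thinning to 2000 UMIs the shares were 11.4% of 44 KO cells and 0% of 24 DKO cells, with intervals that overlapped. Il12b was at 0.24 (-0.10 to 0.57), but without the highest cell of each library it had 82.8 CPM in KO and 322 in DKO. Ebi3 was at -0.57 (-1.63 to 0.36). Of the 4 members with at least 10 UMIs, 1 was more than 2-fold lower (beside 12.1% of 5116 genes) and 1 more than 2-fold higher (beside 7.35%). The gate for this class was less clean in KO, where 19 of 47 cells stood near its edge and 10 held Nos2, against 5 and 0 of 24 in DKO. With 3 or more markers required, 35 KO and 23 DKO cells remained, and Il23a stood at 97.6 and 230 CPM. DKO cells of the class were also deeper, with a median of 11234 UMIs against 7530.

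Receptor chains of the family were read in the same cells. Monocyte/macrophages held Il6ra, the IL-6 receptor, at 58.5 CPM in KO against 94.1 in DKO, a log2 ratio of 0.69 (0.42 to 0.95). Lifr, the LIF receptor, was at 20.8 against 33.0 CPM, a log2 ratio of 0.67 (0.20 to 1.11). Il6st, which encodes gp130, was at 0.24 (-0.16 to 0.61). Osmr and Il23r had 0 UMIs in this class. Of the 34 fixed pathway genes, 23 had at least 10 UMIs, of which 3 were more than 2-fold lower (Il12rb2, Socs1 and Clcf1) and 1 more than 2-fold higher (Il27ra), beside the same 4.44% and 6.39% of genes. The intervals of Il12rb2 (35 and 2 UMIs, -4.93 to 0.13) and Il27ra (7 and 4 UMIs, -0.72 to 3.47) include 0. Socs1, an inhibitor of JAK signalling, had a log2 ratio of -1.46 (-1.85 to -1.12). Clcf1, a ligand of the family, had -1.06 (-1.97 to -0.34). Jak2 was at -0.58 (-0.86 to -0.32) and Stat3 at 0.21 (0.06 to 0.36). Of the factors that act at these genes, the NF-κB genes Rel and Nfkb1 were at -0.11 (-0.20 to -0.01) and -0.14 (-0.28 to -0.02), Irf8 at -0.55 (-0.72 to -0.39) and Batf at 0.78 (0.53 to 1.01).

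In T cells, Il12rb2, a receptor chain for IL-12, was at the same level in both libraries, at 72.1 CPM in KO and 72.5 in DKO. Il23r had 21 UMIs in KO against 1 in DKO, a log2 ratio of -2.11 (-8.03 to -0.02). The cytokines that IL-12 and IL-23 are known to raise were lower in DKO T cells, 5 of 5 by more than 2-fold, beside 12.4% of 8312 genes, and 4 of the 5 intervals lay below 0. Ifng, which encodes interferon-γ, had 156 and 9 UMIs, a log2 ratio of -2.31 (-3.54 to -1.42). Il17a had 386 and 11 UMIs, a log2 ratio of -3.34 (-4.42 to -2.55). Il22 had 82 and 1 UMIs, Il17f had 76 and 0, and Csf2 had 12 and 1, with an interval of -7.27 to 0.90. Per the study's methods, the sort was meant to leave T cells out, so how the 281 KO and 103 DKO T cells stand for those of the tissue was not tested. By unsupervised clustering, the cluster named T cell held 147 KO and 46 DKO cells. An unnamed cluster led by Klra7, Xcl1 and Cd7 held 142 and 67. The part of the make-up of the T cell class in these ratios was not tested.

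The genes whose detection was most like that of each member were ranked in KO monocyte/macrophages by the difference in the share of cells with them, between cells with and without the member. For Il23a (82 cells) they were Ptgs2 (89.0% against 34.3%), Il1a (67.1% against 12.7%), Tnfaip3, Hcar2 and Cxcl2. For Il6 (72 cells) they were Il1a (59.7% against 13.5%), Il23a (47.2% against 3.42%), Tnfaip3, Nfkbiz and Nos2. For Il12a (36 cells) they were AA467197, Inhba, Nos2, Slc7a11 and Il1a, and for Lif (17 cells) Arg1 (76.5% against 10.1%), Slpi, Nos2, Hcar2 and Il1a. Il1a was thus among the 5 for each of these 4 members. The list for Il27 (51 cells) was Sp110, Gbp5, Fam26f, Acod1 and Oasl2, several of which are known as interferon-induced genes. Osm (264 cells) went with Csrnp1, Nr4a1, Fos, Maff and Pim3, among them immediate-early genes. For Ebi3 (187 cells) the differences were small, at most 20 percentage points (Hexa, 62.0% against 42.1%), and for Il12b the list rested on 10 cells.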

How the data were processed

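Colon cells sorted from chimeric mice were profiled in 1 droplet library (10x 3′ chemistry) per genotype. The deposited values are raw UMI counts for each gene in each barcode. Per the submitters' processing notes, the authors used Cell Ranger 6.0.1 with mm10, and Seurat 4.3.0 for their own analysis. The study's cell limits were applied, which are 300 to 5000 detected genes and no more than 10% of UMIs from mitochondrial genes. For each cell, classes with at least 2 detected markers competed on the share of their markers detected, and the leading class needed a lead of 10% of markers. This gate was revised after the cells were seen, because the first version let a class with 1 marker compete, and the first version is kept as an alternative. UMIs were summed per class and library and scaled to counts per 1000000 (CPM), and ratios had 0.5 counts added to each sum. Intervals are exact (Clopper-Pearson, Poisson and conditional) at 95%, and genes with under 10 UMIs over both libraries were left out of counts of ratios. Limits for counts of 0 use 3 counts, and cells were thinned to 2000 UMIs where stated. A cell stood near the edge of its gate where it had only the 2 markers needed or where its lead was within 0.05 of the lead needed. Doublets were not removed, since Scrublet (scanpy 1.11.5) called only 6 of 2584 KO and 1 of 742 DKO barcodes, too few to have worked.

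The members, gene lists, markers and Arg1 split were chosen with earlier results of these data known. All 8 members are named, with pathway genes of at least 50 UMIs in the class compared, receptor chains, every gene in a count of 5 or fewer, and the 5 genes most alike each member. One pathway gene that this rule would name is not reported here. Marker, Ccr7, Flt3 and Itgae values of the highest cells were chosen after their values were seen. Alternatives were the cell filter, the gate, Seurat 5.3.0 clusters (R 4.3.3), doublet scores, thinning, TMM scaling (edgeR 4.0.16), the added count, Arg1 cells and the highest cell of each gene. The ratio and interval steps were tested on simulated data.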

Additional observations from a re-analysis of the deposited data

Results flagged for a closer look

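The log2 ratio of DKO over KO for Il23a stood on opposite sides of 0 in different classes, with intervals that did not include 0. It was -3.29 in monocyte/macrophages, 1.66 in mature dendritic cells and 1.99 (0.21 to 3.86) in neutrophils. With 1 library per genotype the difference between classes was not tested, the mature dendritic cells with Il23a held Ccl22 in 5 of 6 cells in KO and 0 of 5 in DKO, and the neutrophil value rests on 6 KO and 7 DKO UMIs.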

How the results depend on the processing

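Under the alternatives, the 3 members more than 2-fold lower and 1 more than 2-fold higher in DKO monocyte/macrophages became 1 and 2 without cells with Arg1, and their median log2 ratio of -0.16 became 0.27. That step removed 160 KO cells and 1 DKO cell, so it acted on the KO library almost alone. Without the highest cell of each gene the median was -0.55, and under the other alternatives it lay between -0.29 and 0.06. Thinned to 2000 UMIs, cells with both chains of a heterodimer were 5 in KO and 0 in DKO, against 17 and 4, since thinning removes UMIs. TMM scaling moved the median of all genes by -0.12 on the log2 scale and turned no member's direction. The Il23a ratio in monocyte/macrophages lay between -4.18 and -1.61 under every alternative, and that of Osm between 0.38 and 0.75. The first version of the gate gave 1358 KO and 277 DKO monocyte/macrophages, and Il12a at -0.98 and Il6 at -0.09, with intervals that include 0. In all, 471 of 526 recomputed values stayed within the interval of the value as reported or, for counts, within 1.5 times, and for the median within 0.3. Of 704 recomputed shares in other classes 680 did so, and 20 of the 24 that did not came from thinning. The first gate, removal of the called doublets, and the mature dendritic cells with 3 or more markers were alternatives added after seeing the data. No paired analysis was possible because each genotype had 1 library. Depth limits the rarest members: Il12a, Il27 and Lif had under 100 UMIs in either library.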
